A study of Homo sapiens with 6 samples.

Results

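The genes described here are 10 receptors and ligands of the vascular endothelial growth factor (VEGF) and angiopoietin systems, taken by name from 23686 genes counted in every library. They are the receptors KDR, FLT1, FLT4 and TEK, the co-receptors NRP1 and NRP2, and the ligands VEGFA, VEGFB, VEGFC and PGF. The set was selected on the log2 fold change of KDR in the contrast described here. KDR was number 5 by size among decreases past the test's threshold in genes whose groups stood apart and averaged at least 5 CPM (reads scaled to library size). The other 9 joined it as family relatives. KDR had a log2 fold change of -1.11, next to CCL20 at -1.27 inside that limit and GPNMB at -1.10 just outside it. KDR's difference between the groups is therefore described here and not tested.

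RNA was sequenced from HEK293 cells, an established human embryonic kidney line, and all sampled cells were GFP+ and were collected by cell sorting. The co-culture group (3 libraries) is labelled ROS-co-cultured: these cells were grown beside HEK293 (+DAAO) cells, which make reactive oxygen species, with 25 µM D-alanine for 10 h. DAAO usually stands for D-amino acid oxidase, which turns D-amino acids such as D-alanine into hydrogen peroxide and other products. The control group (3 libraries, labelled Wt controls) was also GFP+ and sorted, and the labels carry the same treatment text for it, so whether the controls had D-alanine or partner cells is not known. The labels name 1 cell line and no separate cultures, so p-values measure the spread between these libraries, which may be technical.

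VEGF receptors are tyrosine kinases of the endothelium. VEGFA drives the growth of blood vessels through KDR (VEGFR2), the main signalling receptor, while FLT1 (VEGFR1) binds VEGFA more tightly but signals weakly, and its soluble form acts as a decoy. VEGFB and PGF bind FLT1, VEGFC binds FLT4 (VEGFR3) and drives lymphatic growth, and the neuropilins NRP1 and NRP2 present VEGFs to these receptors and also bind semaphorins. TEK (TIE2) is the receptor of the angiopoietins, a separate family that steadies vessels. HEK293 is not an endothelial line, and several of these genes are also made by epithelial and neural cells.

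The libraries held 19091085 to 36250314 gene-assigned reads, so that 1 read was worth 0.0276 to 0.0524 CPM. On the unexpected strand the median gene had 0.124% and 0.211% of its reads in co-culture libraries 2 and 3 but 1.57% to 1.75% in the other 4, co-culture library 1 among them. A fit with this strand class as a batch term, in which only co-culture library 1 is set against the controls, is quoted for each tested gene of the 10 and for genes of other lists. Control library 1 also stood apart from the other controls: without it the number of genes past the threshold was 3069 in place of 704. Results that turn on it are given with and without it.

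The start regions of KDR and FLT1 are shown because the counts of these receptors stood apart between the groups in opposite directions. RefSeq promoter sequences (GRCh38.p14) were found for 7 of the 10 genes. The read counts were made on another build, hg18 per the submitters' processing notes, so the sequences are used only as sequences. The 250 bases before each start are given 5′ to 3′ on the gene's own, minus strand. Capitals mark GC boxes, the letters GGGCGG or their reverse complement CCGCCC.
KDR, chr4:55125596-55125845: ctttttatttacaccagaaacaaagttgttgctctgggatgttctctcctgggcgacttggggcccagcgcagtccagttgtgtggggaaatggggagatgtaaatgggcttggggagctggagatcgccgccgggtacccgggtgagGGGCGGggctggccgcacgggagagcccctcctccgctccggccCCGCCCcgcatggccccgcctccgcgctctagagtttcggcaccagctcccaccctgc
FLT1, chr13:28495129-28495378: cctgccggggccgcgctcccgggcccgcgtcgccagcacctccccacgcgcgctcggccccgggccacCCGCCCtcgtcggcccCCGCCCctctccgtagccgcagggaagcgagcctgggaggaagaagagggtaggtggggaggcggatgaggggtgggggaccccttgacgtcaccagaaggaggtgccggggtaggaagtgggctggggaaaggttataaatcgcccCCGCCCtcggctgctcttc

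The KDR window held 2 GC boxes and the FLT1 window 3. Across 35116 RefSeq start regions of the same length, 42.6% held at least 1 GC box on either strand, 24.3% at least 2 and 13.9% at least 3. The letters GGAA, searched on both strands, occurred 1 time in KDR and 4 times in FLT1, against a median of 3 over all start regions. A TATAAA box was present in FLT1 and not in KDR, and 10.7% of all start regions held one on either strand. Of the core letters that hypoxia-inducible factors read, only the form ACGTG was searched. It was in neither window and in 18.5% of all start regions. The windows were 65.2% (KDR) and 73.2% (FLT1) G and C, against a median of 58.0%. These matches describe the letters in a short window only.

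Of the 10 genes, 9 had enough reads to be tested, and 2 of them had an adjusted p under 0.05 in edgeR's quasi-likelihood test: KDR, lower in co-culture and chosen for it, and FLT1, higher. Over all 14582 tested genes 4.83% passed, 2.66% higher and 2.17% lower. Besides KDR, 1 of 8 tested genes passed. The median log2 fold change of those 8 was -0.12, and over all tested genes the median absolute log2 fold change was 0.13. In 5 of the 9 the groups did not overlap, 4 with co-culture below and 1 above, where 29.3% of all tested genes showed no overlap (15.0% below and 14.3% above). KDR counts in both, and in each setting below, through the value that chose it. The same KDR and FLT1 passed with limma-voom, RLE scaling and no low-count filter, where 4.63%, 4.86% and 4.5% of all genes passed. DESeq2 (7.28% of all genes) added NRP1, and total-count scaling (6.05%) had NRP1 in place of FLT1. KDR alone passed with counts taken without regard to strand (4.46%), with a replicate block (1.12%), without co-culture library 1, 2 or 3 (0.831%, 0.503% and 2.18%) and without control 2 or 3 (0.44% and 5.0%). Without control 1 (20.8%) 5 of the 9 passed. With the strand class as a term, which sets 1 co-culture library against the controls, neither KDR nor FLT1 kept its call.

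KDR read 9.35, 8.97 and 7.48 CPM in controls 1, 2 and 3 and 4.40, 3.99 and 3.63 CPM in co-culture libraries 1, 2 and 3. Every co-culture library lay below every control, which was a condition of the choice of KDR. The means were 8.60 ± 0.989 CPM in the controls and 4.01 ± 0.386 CPM in co-culture (mean ± SD of 3 libraries each). This is a log2 fold change of -1.11 (SE 0.15), or a level that fell by 53.5%. Only 854 reads stood behind these values, between 84 and 195 in a library. With any 1 library left out the log2 fold change ran from -1.20 to -1.03. With strand class as a batch term it was -0.96, short of the threshold. All these fits reuse the libraries on which KDR was chosen, so they do not test it. In bulk RNA a lower count cannot tell fewer cells that make the transcript from less transcript in each cell.

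FLT1 moved the other way by a smaller amount. Its level was 36.7, 38.6 and 38.7 CPM in controls 1, 2 and 3 and 46.1, 46.0 and 44.3 CPM in co-culture libraries 1, 2 and 3. The groups did not overlap, and the values within each were close together. FLT1 rose from 38.0 ± 1.15 to 45.5 ± 1.02 CPM (mean ± SD of 3 libraries each). Its log2 fold change was 0.26 (SE 0.06), and edgeR gave an adjusted p of 0.0468. That call sat at the edge of the threshold: the log2 fold change stayed between 0.22 and 0.28 in 14 other settings, but 9 of them lost the call, with edgeR adjusted p-values up to 0.310 in the fit with the strand class. Gene-level reads do not separate the membrane receptor from the soluble decoy form of FLT1.

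FLT4, the lymphatic receptor, read 32.5, 28.4 and 26.1 CPM in controls 1, 2 and 3 and 31.6, 32.1 and 36.1 CPM in the co-culture libraries. Control 1 was as high as co-culture libraries 1 and 2, so the groups overlapped. Its log2 fold change was 0.20 (SE 0.09) with an edgeR adjusted p of 0.221, and the 95% interval of the change ran from -0.186% to 32.8%. Leaving out 1 library moved it both ways, to 0.30 without control 1 (edgeR adjusted p 0.0145), 0.14 without co-culture library 3 (0.490) and 0.13 without control 3 (0.446). In the strand class fit it was 0.13 (0.749).

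TEK was close to the limit of detection. It had 1, 0 and 2 reads in controls 1, 2 and 3 and 3, 3 and 0 reads in the co-culture libraries, or at most 0.150 CPM, and was not tested. A count of 0 allows up to 3 reads, which is 0.157 CPM in control 2 and 0.0828 CPM in co-culture library 3, for counting error only.

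**Figure D1:**
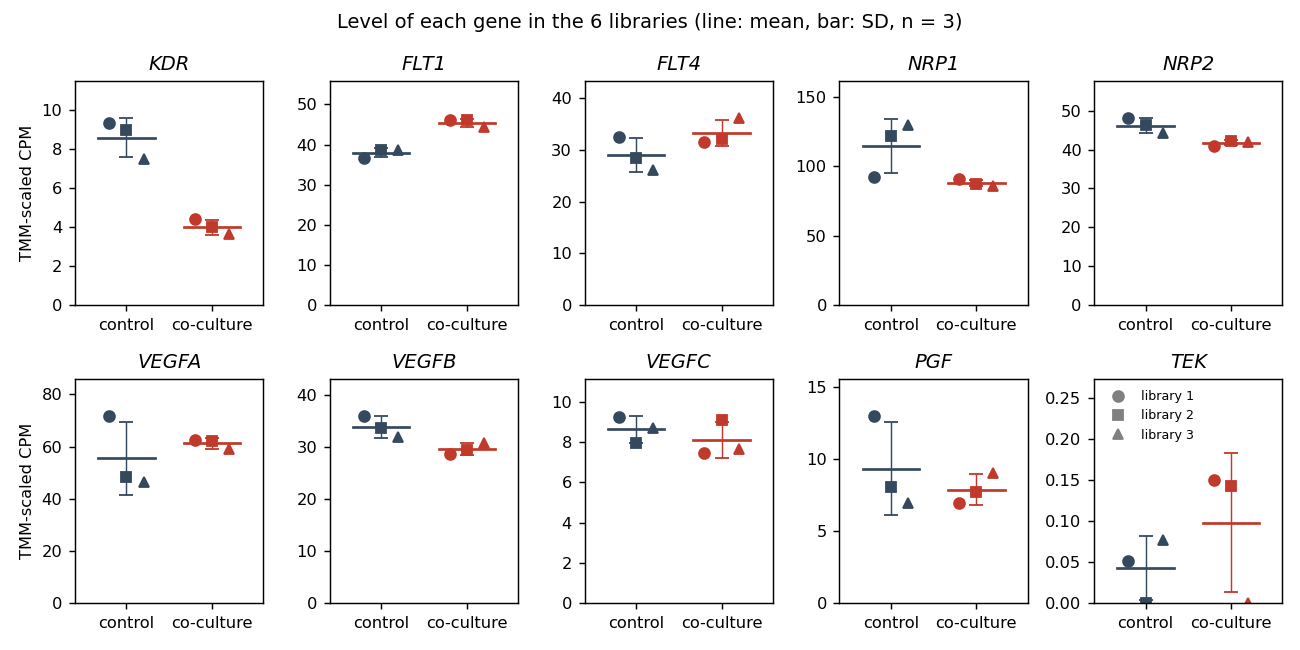
Level of each of the 10 genes (TMM-scaled CPM, each axis from 0) in 3 control and 3 co-culture libraries, with symbols for library numbers, lines at the means and bars for the SD. KDR is lower and FLT1 higher in co-culture without overlap, and control 1 stands apart in the panels of VEGFA, PGF and NRP1.

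In the mix of VEGF receptor transcripts only the share of KDR stood apart between the groups. There were 3.92, 4.30 and 5.18 FLT1 reads per KDR read in controls 1, 2 and 3 and 10.5, 11.5 and 12.2 in co-culture libraries 1, 2 and 3. On the scale of CPM per kilobase of transcript, which allows genes to be compared, KDR made up 12.1% ± 0.866 of the summed level of KDR, FLT1 and FLT4 in the controls and 5.20% ± 0.575 in co-culture (SD, n = 3 each). FLT1 made up 45.8% ± 3.47 and 50.3% ± 1.99 on that scale, and FLT4 42.2% ± 2.78 and 44.5% ± 2.50. The FLT1 shares overlapped between the groups, and so did the FLT4 shares. Since KDR was chosen for its decrease, these shares describe the libraries and are not a test.

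**Figure D2:**
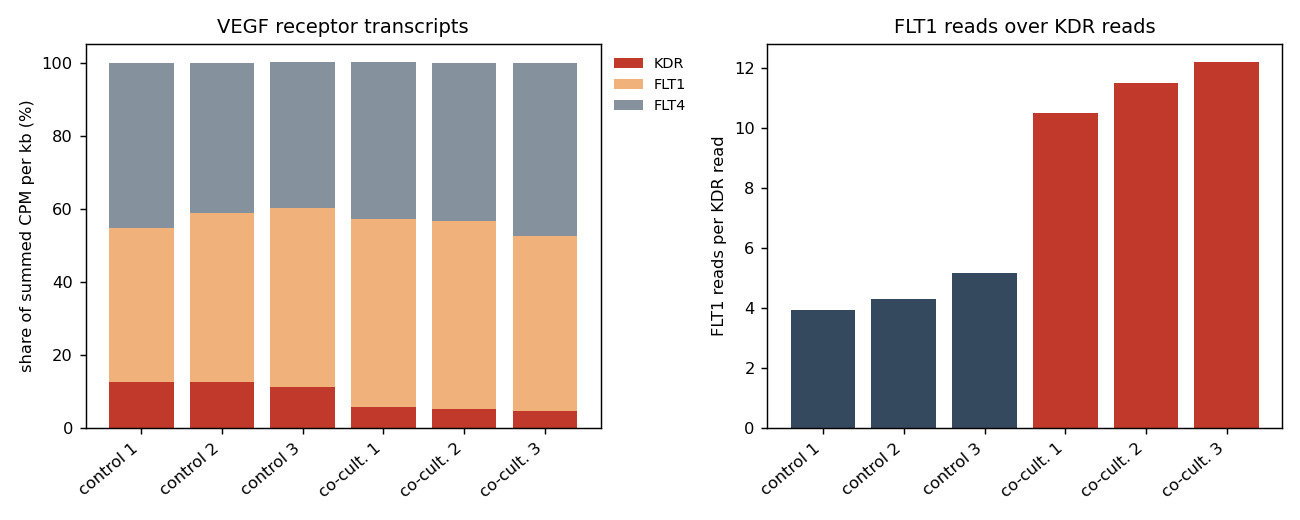
Left, shares (%) of KDR, FLT1 and FLT4 in the summed CPM per kilobase of each library. Right, FLT1 reads per KDR read in the same libraries, with the axis from 0. KDR has the smallest share in all 6 libraries, and the ratio is 3.92 to 5.18 in the controls against 10.5 to 12.2 in co-culture.

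NRP1 was the most abundant of the 10 genes by CPM, with 14301 reads. It read 92.7, 122 and 129.9 CPM in controls 1, 2 and 3 and 90.6, 87.4 and 86.1 CPM in the co-culture libraries. The groups did not overlap, but control 1 lay just above the highest co-culture library while controls 2 and 3 were far above it. The log2 fold change was -0.39 (SE 0.11), which missed the threshold with an edgeR adjusted p of 0.0724. It was -0.52 without control 1 (edgeR adjusted p 2.55e-06), -0.29 without control 3 (0.114) and -0.34 with strand class as a batch term (0.441), and it passed in DESeq2 (-0.38, adjusted p 0.0114).

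NRP2 read 48.0, 46.3 and 44.2 CPM in controls 1, 2 and 3 and 41.0, 42.2 and 42.0 CPM in co-culture. The co-culture values lay just below the lowest control. The log2 fold change of -0.14 (SE 0.07) did not pass (edgeR adjusted p 0.213), and was -0.17 in the strand class fit.

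None of the 4 ligands passed in edgeR's test or in DESeq2, and 1 of them, VEGFB, had an unadjusted p under 0.05 in edgeR. VEGFA, the hypoxia-responsive ligand of KDR and FLT1, read 71.7, 48.2 and 46.4 CPM in controls 1, 2 and 3 and 62.7, 62.2 and 58.9 CPM in co-culture libraries 1, 2 and 3. Control 1 was the highest of the 6 libraries and the other 2 controls were the lowest, so the co-culture values lay between them. The means were 55.4 ± 14.1 and 61.3 ± 2.10 CPM (SD, n = 3 each), with a log2 difference of 0.15 (SE 0.15, adjusted p 0.605 by edgeR) and a 95% interval of the change from -12.8% to 40.4%. Control 1 decided this value: without it the log2 fold change was 0.37 (SE 0.06, edgeR adjusted p 0.000493), and without control 2 or control 3 it was 0.06 and 0.03. It was 0.18 in the strand class fit.

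PGF, placenta growth factor, showed the same high control 1. It read 13.0, 8.09 and 6.94 CPM in the controls and 6.95, 7.70 and 9.02 CPM in co-culture, with overlapping groups. The log2 fold change was -0.22 (SE 0.22, edgeR adjusted p 0.577) and turned to 0.10 without control 1 (adjusted p 0.648). It was -0.42 in the strand class fit. The interval of the change with all 6 libraries was wide, from -38.9% to 20.0%.

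VEGFB, a ligand of FLT1, read 35.9, 33.7 and 31.8 CPM in the controls and 28.7, 29.3 and 30.8 CPM in co-culture. All co-culture values were below all controls, by a small step. Its log2 fold change of -0.19 (SE 0.07) had an edgeR adjusted p of 0.161, and it was -0.24 in the strand class fit. VEGFC, the ligand of FLT4, read 9.25, 7.93 and 8.71 CPM in the controls and 7.46, 9.12 and 7.68 CPM in co-culture. These overlapped throughout, with a log2 difference of -0.10 (SE 0.13, adjusted p 0.695 by edgeR) and an interval of the change from -23.4% to 14.1%. VEGFC was at -0.21 in the strand class fit.

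**Figure D3:**
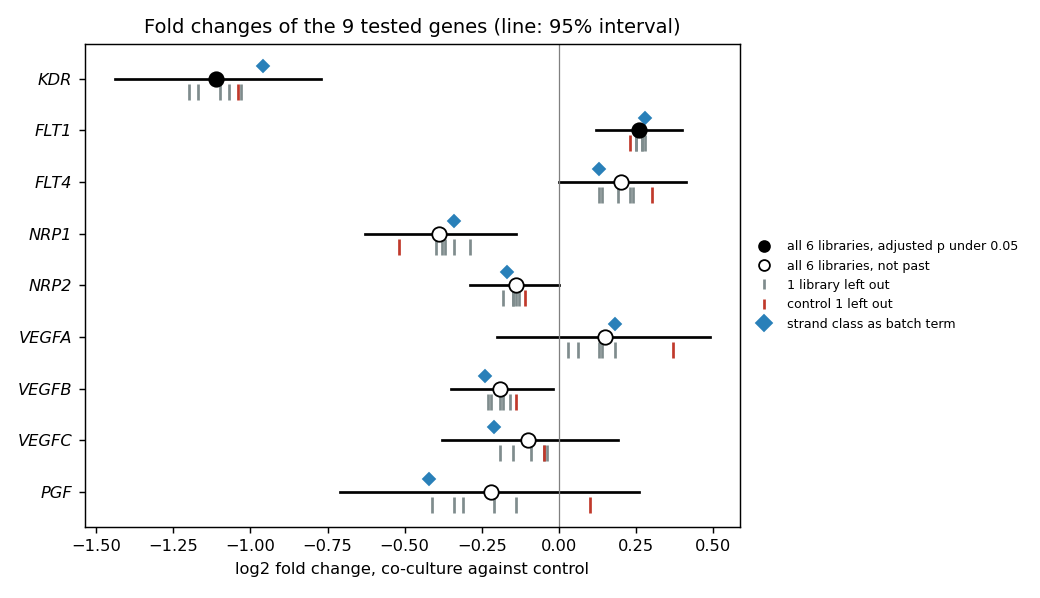
Log2 fold change of the 9 tested genes with 95% intervals (circles, filled where the edgeR adjusted p is under 0.05), with 1 library left out (ticks, control 1 in red) and with strand class as a batch term (diamonds). KDR stays between -1.20 and -0.96 and FLT1 between 0.23 and 0.28, while leaving out control 1 moves VEGFA to 0.37 and PGF across 0.

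Per kilobase of transcript the 10 genes covered a wide range of levels. In the controls VEGFB was highest with 24.5 ± 1.51 CPM per kilobase, followed by NRP1 with 19.6 ± 3.34 and VEGFA with 15.7 ± 3.99, whose ranges overlapped. NRP2 followed with 6.93 ± 0.287, then FLT1 with 5.36 ± 0.162, FLT4 with 4.95 ± 0.557, PGF with 4.85 ± 1.67 and VEGFC with 4.18 ± 0.321 (SD, n = 3 for each). Among these last 4 each overlapped the next, while FLT1 lay above VEGFC without overlap. KDR, at 1.42 ± 0.163 CPM per kilobase, was below all of them, and TEK was near 0. In co-culture KDR stood at 0.662 ± 0.0638 and kept the ninth place, VEGFA at 17.3 ± 0.595 lay above NRP1 at 15.0 ± 0.393 without overlap, and FLT1 at 6.41 ± 0.143 overlapped NRP2 at 6.26 ± 0.100.

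Other genes of these systems were scarce. FIGF, the older symbol of VEGFD, had 13 reads in all 6 libraries, ANGPT4 had 3 and TIE1, the orphan partner of TEK, had 0. ANGPT1 and ANGPT2, the main TEK ligands, were the 2 tested genes of this list, at 1.01 and 0.801 CPM in the controls and 0.793 and 0.541 CPM in co-culture. Neither passed (edgeR adjusted p 0.554 and 0.353), and 41.6% of all reads over ANGPT2 were on the unexpected strand.

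The receptor family most like these, the class III receptor tyrosine kinases with their ligands, had 10 of 13 genes tested. Of these 0 rose and 1 fell, 10.0% beside 4.83% over all tested genes, with a median log2 fold change of -0.06. PDGFD, a platelet-derived growth factor, fell from 22.1 ± 1.73 to 16.7 ± 0.585 CPM (log2 difference -0.40 with SE 0.09, adjusted p 0.0309 by edgeR). KIT, the receptor of stem cell factor, stood at 23.8 ± 1.95 and 26.0 ± 1.24 CPM and did not pass (edgeR adjusted p 0.414). KIT and PDGFRA are the nearest coding genes on one side of KDR in GRCh38.p14, and SRD5A3 and TMEM165 those on the other. PDGFRA (log2 fold change -0.10, edgeR adjusted p 0.773), SRD5A3 (-0.26, 0.0901) and TMEM165 (-0.14, 0.212) did not pass either.

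A list of semaphorins and plexins with GIPC1, drawn up around partners of the neuropilins, had 2 of 13 tested genes higher and 0 lower. Its share was 15.4% beside 4.83% over all tested genes, with a median of 0.09. PLXNA3, a plexin co-receptor, rose from 49.6 ± 0.799 to 62.3 ± 1.56 CPM (log2 difference 0.33 with SE 0.06, adjusted p 0.0159 by edgeR). SEMA3E, which binds PLXND1, rose from 20.7 ± 1.39 to 26.0 ± 1.60 CPM (log2 difference 0.33 with SE 0.09, adjusted p 0.0497 by edgeR) and kept the call in 3 of 14 other settings.

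Of 53 tested genes that relay the signal of VEGF receptors 1 rose and 1 fell, a share of 3.77% beside 4.83% over all tested genes, and the median log2 fold change was 0.00. FYN, a SRC family kinase, fell from 142 ± 2.45 to 114 ± 4.16 CPM (log2 difference -0.31 with SE 0.06, adjusted p 0.0139 by edgeR). Of 31 tested genes for receptor turnover and dephosphorylation, 1 rose and 1 fell, a share of 6.45%. SPRY4, a feedback inhibitor of receptor tyrosine kinases, rose from 10.2 ± 0.660 to 16.4 ± 0.476 CPM (log2 difference 0.68 with SE 0.10, adjusted p 0.00470 by edgeR). PTPN1, a tyrosine phosphatase that acts on KDR among others, fell from 85.1 ± 3.87 to 71.7 ± 2.50 CPM (log2 difference -0.25 with SE 0.06, adjusted p 0.0465 by edgeR).

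Genes that VEGF is known to induce in endothelium moved in both directions. Of 34 tested genes 7 rose and 5 fell, a share of 35.3% beside 4.83% over all tested genes, with a median log2 fold change of 0.10. KDR and FLT1 are counted among them, PGF is also in the list, and many of its genes respond to other growth signals too. The list was drawn up with earlier results of these data known, so its share is not a test. EGR3, an immediate-early factor, rose from 1.30 ± 0.472 to 3.47 ± 0.253 CPM (log2 difference 1.45 with SE 0.26, adjusted p 0.0155 by edgeR), and the coagulation inhibitor TFPI2 had a log2 fold change of 1.34. PTGS2, NR4A1, PLAUR and F3 were also higher (1.07, 0.96, 0.67 and 0.60, with edgeR adjusted p 0.00143, 0.00669, 0.0346 and 0.0178). ICAM1, IL8 and HLX were also lower (-1.01, -0.68 and -0.61, with edgeR adjusted p 0.0159, 0.0465 and 0.0447). SELE, an adhesion molecule of activated endothelium, was lower, at 0.692 ± 0.149 CPM in co-culture against 1.97 ± 0.672 CPM in the controls (log2 difference -1.47 with SE 0.32, adjusted p 0.0303 by edgeR). In the strand class fit the median log2 fold change of this list was 0.08.

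Transcription factors tied to KDR expression in other work had 0 of 33 tested genes higher and 4 lower. Their share was 12.1%, beside 4.83% over all tested genes. The largest fold change of the list was an increase, that of KLF2, from 1.26 ± 0.361 to 2.53 ± 0.456 CPM without overlap. Its log2 difference of 1.05 (SE 0.27) just missed the threshold (edgeR adjusted p 0.05 after rounding). In DESeq2 1 gene of the list was higher and 5 lower, and in limma-voom 1 and 2. NR2F2 (COUP-TFII), a factor of venous identity, fell from 195 ± 26.2 to 147 ± 11.3 CPM (log2 difference -0.41 with SE 0.10, adjusted p 0.0411 by edgeR). TFAP2A fell from 137 ± 11.3 to 107 ± 1.79 CPM (-0.36, edgeR adjusted p 0.0175), the forkhead factor FOXC1 from 204 ± 23.2 to 162 ± 8.43 CPM (-0.33, 0.0491) and the forkhead factor FOXO3 from 132 ± 3.53 to 111 ± 6.64 CPM (-0.24, 0.0474). Control 1 was the lowest control for NR2F2, TFAP2A and FOXC1, as for NRP1. The median of the list was -0.03, but 0.07 in the strand class fit and 0.02 without co-culture library 3.

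Factors tied to VEGFA expression had 1 of 20 tested genes higher (5.0%, beside 4.83% over all genes), 0 lower and a median of -0.01. This was ZFP36, which promotes the decay of VEGFA and other mRNAs, at 8.25 ± 1.30 against 12.9 ± 0.656 CPM (log2 difference 0.65 with SE 0.13, adjusted p 0.0214 by edgeR). Secreted antagonists and matrix binders of VEGF had 3 of 21 tested genes higher and 0 lower. Their share was 14.3% beside 4.83% over all tested genes, with a median of 0.11. FN1 (fibronectin), a matrix protein that binds VEGF, rose from 843 ± 87.4 to 1518 ± 56.3 CPM (log2 difference 0.85 with SE 0.08, adjusted p 0.000678 by edgeR) and kept its call in all 14 other settings. COL4A3, a basement membrane collagen, rose from 16.2 ± 1.10 to 26.3 ± 3.47 CPM (0.69, edgeR adjusted p 0.00719), and THBS1 (thrombospondin 1), an inhibitor of vessel growth, rose from 11.2 ± 1.18 to 15.5 ± 1.76 CPM (0.48, edgeR adjusted p 0.0457). Without control 1, 11 genes of this list were higher and 0 lower, where 20.8% of all tested genes passed. SPRY4, TFPI2 and FN1 kept their calls without co-culture library 1, without co-culture library 2 and without control 2. PDGFD, SEMA3E, PLXNA3, FYN, PTPN1, EGR3, SELE, NR2F2, TFAP2A, FOXC1, FOXO3, ZFP36, COL4A3 and THBS1 lost theirs in each of these fits. In the strand class fit these 14 genes and SPRY4 (edgeR adjusted p 0.110) missed the threshold, while TFPI2 (0.0404) and FN1 (0.0356) passed. For THBS1 that fit gave a log2 fold change of 0.27, and for COL4A3 0.73.

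**Figure D4:**
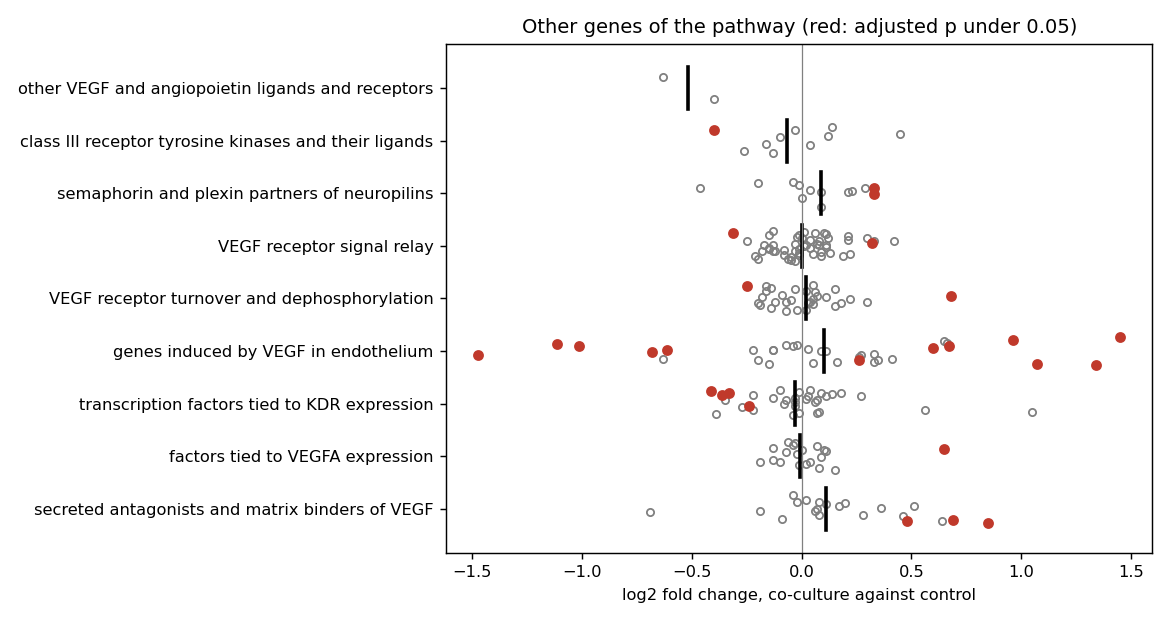
Log2 fold change of every tested gene in 9 lists around the VEGF system (points, red where the edgeR adjusted p is under 0.05), with the median of each list as a black line. The medians of the relay and turnover lists lie at 0.00 and 0.02, and the list of genes induced by VEGF holds 7 higher and 5 lower genes.

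Markers of endothelium were near the limit of detection. Of 16 markers, TIE1, CLDN5 and PLVAP had 0 reads, 10 more had too few to be tested, and PECAM1, CDH5 and VWF stood at 0.0168, 0.0557 and 0.261 CPM in the controls. Their summed level was 18.0 to 32.2 CPM in the controls and 19.9 to 23.7 CPM in co-culture. Most of it was EGFL7, at 28.4, 17.3 and 14.9 CPM in controls 1, 2 and 3, again highest in control 1. ESAM, the other named marker, stood at 1.41 ± 0.180 and 1.47 ± 0.451 CPM. The immune markers summed to 2.53 to 2.72 CPM in the controls and 1.85 to 2.38 CPM in co-culture, most of it CD14 at 1.61 and 1.40 CPM, and PTPRC, which marks all blood leucocytes, stood at 0.0813 and 0.0410 CPM. Of 7 fibroblast markers 3 were tested, and the sum was 19.3 to 24.6 CPM in the controls and 13.9 to 14.5 CPM in co-culture. LUM fell from 10.3 ± 1.17 to 6.49 ± 1.00 CPM (-0.67, edgeR adjusted p 0.0293). COL3A1 stood at 5.69 ± 3.15 CPM in the controls and 2.90 ± 0.580 CPM in co-culture. Its groups did not overlap, but it did not pass (-0.95, edgeR adjusted p 0.159). PDGFRA was at 4.97 and 4.65 CPM (-0.10, edgeR adjusted p 0.773). DCN, PDGFRB, THY1 and COL1A2 were at 0.290 CPM or less in either group. In the strand class fit LUM was at -0.81 and missed the threshold (edgeR adjusted p 0.235). The part of this list in the results above was not tested. All 10 markers chosen for HEK293 were tested, and VIM and INA were higher in co-culture (log2 fold changes 0.40 and 0.38, edgeR adjusted p 0.00793 and 0.0118), and neither passed in the strand class fit (0.198 and 0.235).

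Among 11638 other genes with a mean of at least 5 CPM, those whose log2 CPM followed KDR most closely over the 6 libraries were REEP4, LMO4, TXNDC11, TMEM9B and CITED2, with Pearson r from 0.993 to 0.997. All 5 were lower in every co-culture library than in any control, which the choice by likeness to KDR favours. The log2 fold changes were -0.24, -0.39, -0.14, -0.22 and -0.51, smaller than that of KDR. REEP4, TXNDC11 and TMEM9B missed the threshold in edgeR's test, and LMO4 and CITED2 passed it. As many as 375 genes had an r above 0.9, and this likeness over 6 libraries is a description.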

How the data were processed

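The authors deposited raw read counts per gene for each of 6 libraries, in the layout of STAR gene counting (counts without regard to strand, forward and reverse). STAR 2.53a, FastQC and hg18 are named in the submitters' processing notes; the annotation release is not given in the sources used here. RNA was extracted with Tripure and the mRNA libraries were stranded, per the labels' protocols. Reverse-strand counts were used and the 4 summary lines left out.

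Genes passing filterByExpr (minimum count 10; 14582 of 23686) were fitted in edgeR 4.0.16 (R 4.3.3) with TMM scaling, group as the only term, robust quasi-likelihood F tests and Benjamini-Hochberg adjustment over all of them, at 0.05. SEs are the absolute log2 fold change over the square root of F, and 95% intervals use the t quantile of the fit. CPM per kilobase uses the longest coding transcript in GENCODE 29, which is not the authors' annotation. Chi-square per degree of freedom between libraries of a group ran from 4.72 to 18.7, so they differed by more than counting error. Each was treated as 1 sample, but this check does not show that they came from separate cultures. Deviations of same-numbered libraries from their group means had correlations of -0.09 to -0.04, so no pairing by number was seen. With 3 libraries per group these values cannot exclude a shared batch. The 16 lists held 268 genes, 6 found under older symbols. On simulated data the fit was tested before use.

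The members and lists were chosen with earlier results of these data known. Named genes were all members, up to 4 genes past the threshold per list by fold change, the 2 highest-level tested genes where none passed, and the 5 genes most like KDR; others are named for context after their values were seen. Some genes that this rule names are not reported here.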

Additional observations from a re-analysis of the deposited data

How the results depend on the processing

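In 14 other settings the number of genes past the threshold stayed within 1.5 times of 704 except in the fits below, and the number of the 10 genes past it (2) likewise. With replicate number as a block (replicate block) 164 genes and 1 of the 10 passed, with a term for strand class 29 and 0 (2 of the 10 at an unadjusted p under 0.05), and with counts taken without regard to strand 1 of the 10 passed. With 1 library left out these numbers ran from 65 to 3069 genes and from 1 to 5 of the 10. The lowest was without control 2 and the highest without control 1, where KDR, FLT1, FLT4, NRP1 and VEGFA passed. The numbers were 123, 74 and 321 genes without co-culture libraries 1, 2 and 3. Without any other single library KDR was the 1 of the 10 that passed. Total-count scaling gave 310 higher and 572 lower genes against 388 and 316, and NRP1 in place of FLT1. Of 573 log2 fold changes for 41 named genes, 427 kept direction and call, 134 lost the call, 6 gained it and 6 changed sign: PGF (0.10), EGFL7 (0.22) and ESAM (-0.02) without control 1, ESAM without co-culture library 2 (-0.14), and ANGPT1 (0.31) and ESAM (-0.50) with the strand class. With 1 library left out PGF ran from -0.41 to 0.10, EGFL7 from -0.29 to 0.22 and ESAM from -0.14 to 0.25. The cause was not tested. The block lost the calls of FLT1 (0.26, edgeR adjusted p 0.133) and of other genes named above. The labels do not say whether the numbers mark shared batches. KDR rests on 84 to 195 reads per library, and TEK on at most 3.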
